A study of Mus musculus with 10 samples.

Results

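The tricarboxylic acid cycle enzymes described here are 9 genes whose symbols were matched exactly in the deposited expression table: Cs, Idh2, Idh3a, Idh3b, Ogdh, Suclg1, Fh1, Mdh2 and Pdha1. Each symbol had 1 row, out of 24839 rows in all, and all 9 reached the minimum level for testing. The table holds messenger RNA from small-intestinal epithelial cells of mice, 10 libraries with 1 per sample, 5 titled NCD and 5 titled HCD, the high cellulose diet named in the series title. The unit is FPKM, a fragment count divided by transcript length and library size.

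The described design kept mice on their diet for 60 days. Sensitised mice received 2 injections of 50 µg of ovalbumin (OVA, the allergen, from egg white) with 1 mg of alum, on days 0 and 14, and then 5 oral doses of 50 mg of OVA. Unsensitised mice received saline. The treatment label reads untreated for all 5 NCD libraries and OVA for all 5 HCD libraries, so diet and OVA cannot be told apart in any difference below. Library numbers were also lower in every NCD library (1 to 10) than in every HCD library (11 to 20). NCD is not spelled out in the labels, and they give no strain, genotype, age, sex or pooling. The design has cells collected from each mouse, but no label ties a library to 1 mouse, so p-values measure the spread between these libraries.

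The tricarboxylic acid cycle runs in the mitochondrial matrix and oxidises acetyl groups to carbon dioxide, passing the electrons to the respiratory chain as NADH and as reduced flavin. Pyruvate dehydrogenase supplies acetyl-CoA from pyruvate. The remaining steps run from citrate synthase through isocitrate dehydrogenase, 2-oxoglutarate dehydrogenase, succinate-CoA ligase, succinate dehydrogenase and fumarase to malate dehydrogenase. All these proteins are encoded in the nucleus and imported. Enterocytes, the absorptive cells of the villus, feed the cycle largely with glutamine, glucose and fatty acids.

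In HCD, 4 of the 9 enzymes were at 52% to 59% of their NCD level, with no overlap between the groups: Fh1, Idh3b, Idh2 and Suclg1. Pdha1 also passed the test but with overlapping libraries. Cs, Ogdh, Mdh2 and Idh3a did not pass. None of the 9 passed as higher. Thus 5 of 9 were lower at an adjusted p under 0.05 (limma on log2(FPKM + 1), two-sided, adjusted over all 10321 tested genes), where 19.2% of all tested genes were lower and 7.13% higher. All HCD libraries lay below all NCD libraries in 4 of the 9, against 12.9% of all tested genes. The median log2 difference, HCD minus NCD, was -0.68 over the 9 enzymes and -0.19 over all tested genes.

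Because FPKM are shares of a library, 1 abundant class bears on all others. The 13 mitochondrially encoded genes made up 3.23% to 5.76% of summed FPKM in NCD libraries and 14.8% to 29.5% in HCD libraries. A second, nuclear scale was therefore formed by removing these 13 genes and bringing each library to a common sum. On the nuclear scale 8.35% of all tested genes were lower and 8.95% higher, and the median over all of them was -0.05. On it Fh1, Idh3b, Idh2 and Suclg1 still passed as lower and Pdha1 did not (adjusted p = 0.175). The median of the 9 was then -0.52. The same 4 had no overlap between the groups, as in 6.00% of all tested genes. After quantile normalization 5 of the 9 passed as lower, against 8.56% of all tested genes. They were the same 4 and Mdh2 (-0.44, adjusted p = 0.0425). Mdh2 had not passed as deposited (-0.34, limma adjusted p = 0.147) or on the nuclear scale (-0.17, limma adjusted p = 0.468). Quantile normalization kept the 13 mitochondrially encoded genes in the ranking, and their bearing on the rank of so abundant a gene was not tested.

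The deposited sums of FPKM lay between 539751 and 634279 per library, and the sequencing depth behind them is unknown, so no counting interval is given. HCD replicate 1 had the highest mitochondrial share, 29.5%, and the lowest summed FPKM of the 9 enzymes, 2092, where the other HCD libraries had 2275 to 3164 and the NCD libraries 3188 to 3728. Marker lists for other cells moved with the groups. All 8 T cell genes rose, with a summed level of 187 to 516 FPKM in NCD and 1066 to 2213 in HCD. All 4 haemoglobin genes rose too, from 15.1 to 41.8 summed FPKM in NCD to 96.6 to 391 in HCD. Of 7 general epithelial genes 6 fell (9332 to 10220 summed FPKM in NCD, 5624 to 8068 in HCD), while 4 of 10 enterocyte genes rose and none fell (18646 to 30292 and 30011 to 45182). Epithelial and enterocyte genes were thus by far the most abundant of the marker lists in every library. Of 9 genes of crypts and dividing cells 3 fell, of 6 tested (71.5 to 168 and 52.3 to 70.3 summed FPKM). Of 4 tested B cell genes (5 listed) 1 rose, of 5 myeloid genes 1, and of 3 tested stromal genes (6 listed) 2, and none fell. These counts are on the deposited scale, where 19.2% of all tested genes were lower and 7.13% higher. On the nuclear scale 5 of the 7 epithelial genes and 1 of the 6 tested crypt genes fell, and the other counts stayed the same. There 8.35% of all tested genes were lower and 8.95% higher. No marker on these lists was at 0 in all libraries. The part of these markers in the differences of the enzymes was not tested. In bulk RNA, fewer cells of a type and less RNA per cell cannot be told apart.

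**Figure D1:**
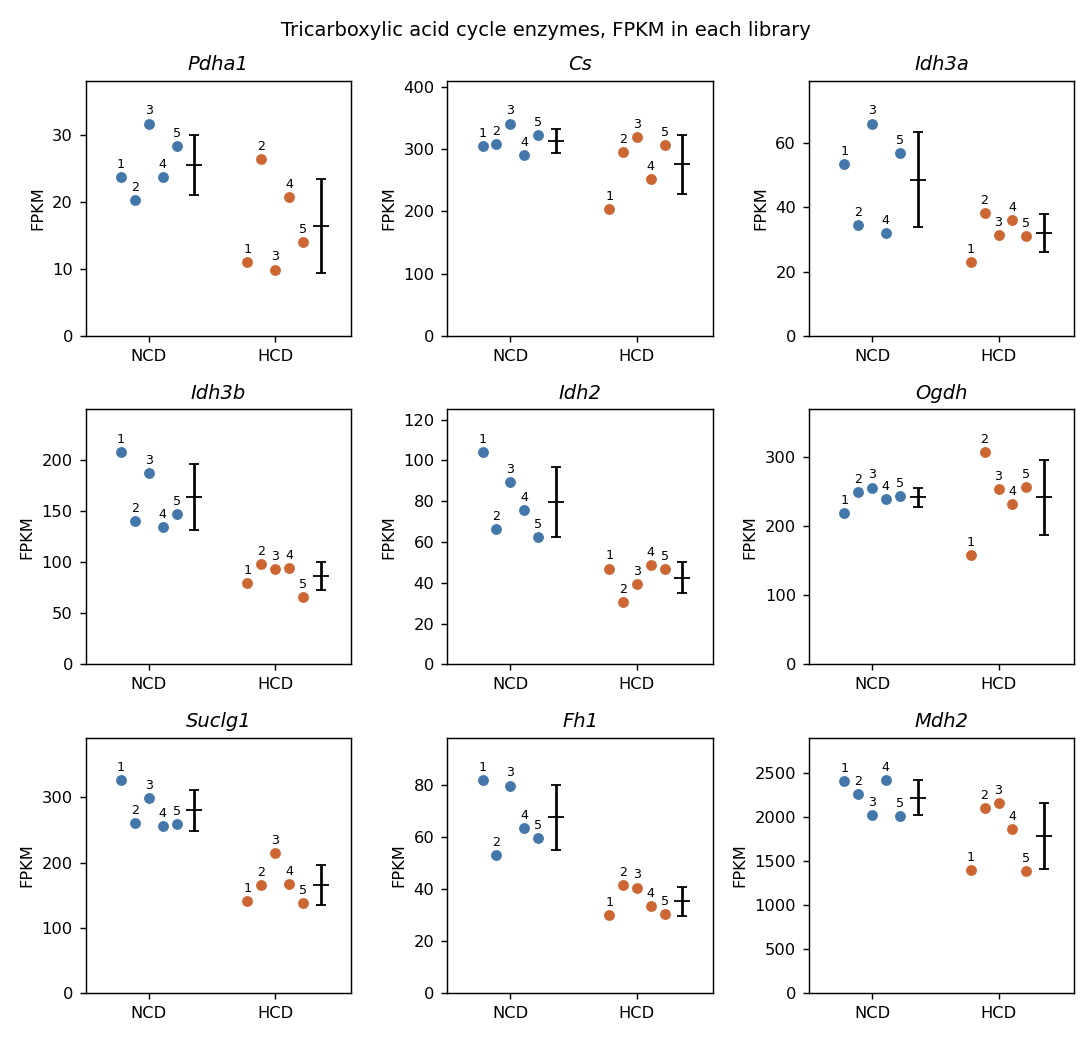
FPKM of the 9 enzymes in each library, on linear axes from 0. Points are single libraries numbered by replicate, blue for NCD and orange for HCD, and the black mark gives the mean with its SD over 5 libraries. The groups are apart in Idh3b, Idh2, Suclg1 and Fh1 and overlap in the other 5.

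The fall was, narrowly, largest in Fh1, fumarase, which hydrates fumarate to malate. Fh1 was at 81.6, 53.0, 79.6, 63.2 and 59.5 FPKM in NCD replicates 1 to 5 and at 30.1, 41.5, 40.5, 33.4 and 30.5 FPKM in HCD replicates 1 to 5. Each HCD library lay below the lowest NCD library, replicate 2. The means were 67.4 ± 12.6 and 35.2 ± 5.46 FPKM (SD, n = 5), 1.92-fold lower in HCD, with a log2 difference of -0.91 ± 0.15 (SE, adjusted p = 0.00117). On the nuclear scale it was -0.74 (adjusted p = 0.00444). Among replicates 1 to 3, which form 1 run of library numbers in each group, the difference was -0.91, and among replicates 4 and 5, the other run, -0.92. Fh1 lies on chromosome 1 (175600374 to 175625635 on GRCm38, minus strand), and 5255 bases of it overlap Kmo on the other strand. Kmo averaged 0.301 FPKM in NCD libraries and 0.392 in HCD libraries, far below Fh1, and the strand setting of the counting is not known.

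Idh3b encodes the beta subunit of the NAD-dependent isocitrate dehydrogenase, which makes 2-oxoglutarate and NADH. It was at 208, 140.4, 187, 135 and 147 FPKM in NCD and at 79.7, 98.6, 94.0, 94.3 and 66.4 FPKM in HCD, so the groups were apart. Its mean went from 164 ± 32.3 to 86.6 ± 13.4 FPKM, 1.89-fold lower, with a log2 difference of -0.90 ± 0.15 (SE, adjusted p = 0.00139), or -0.73 on the nuclear scale (adjusted p = 0.00538). The difference was -0.96 in replicates 1 to 3 and -0.82 in replicates 4 and 5. The gene lies on chromosome 2 (130279309 to 130284547, minus strand) and shares 5 bases with the end of Nop56 on the other strand.

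The catalytic alpha subunit of the same enzyme, Idh3a (chromosome 9, 54586334 to 54604661), was at 53.4, 34.5, 66.1, 32.0 and 57.0 FPKM in NCD and at 22.9, 38.3, 31.3, 36.1 and 31.0 FPKM in HCD. NCD replicates 2 and 4 lay within the HCD range. The log2 difference was -0.56 ± 0.21 (SE) and missed the threshold (adjusted p = 0.0595). Without NCD replicate 2 or NCD replicate 4 it passed, at -0.66 and -0.69. Idh3g, the gamma subunit, fell from 261 ± 26.8 to 165 ± 25.9 FPKM (log2 difference -0.67, adjusted p = 0.00348), with all HCD libraries below all NCD libraries, and passed on the nuclear scale as well (-0.49, adjusted p = 0.0118). On the FPKM scale the alpha subunit was the least abundant of the 3 in both groups.

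Idh2 encodes the NADP-dependent isocitrate dehydrogenase of the matrix, which makes NADPH for glutathione reduction and other uses. It was at 104, 66.4, 89.5, 75.6 and 62.4 FPKM in NCD and at 47.0, 30.5, 39.3, 48.5 and 46.9 FPKM in HCD. The highest HCD library, replicate 4, stood below the lowest NCD library, replicate 5. The mean fell from 79.6 ± 17.2 to 42.4 ± 7.59 FPKM, 1.88-fold lower, with a log2 difference of -0.89 ± 0.17 (SE, adjusted p = 0.00261), or -0.72 on the nuclear scale (adjusted p = 0.0100). Of the 4 enzymes it had the widest gap between the runs of library numbers, -1.13 in replicates 1 to 3 and -0.52 in replicates 4 and 5. Idh2 lies on chromosome 7 (80094846 to 80115392, minus strand). Its cytosolic counterpart Idh1 was at 48.5 ± 12.03 and 51.0 ± 20.3 FPKM (log2 difference 0.02, adjusted p = 0.963).

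Suclg1 encodes the alpha subunit of succinate-CoA ligase, shared by the GTP-forming and ATP-forming enzymes. It was at 326, 261, 299, 256 and 258 FPKM in NCD and at 141, 166, 215, 168 and 138 FPKM in HCD. HCD replicate 3 came nearest to the NCD libraries and was still below them. Its mean went from 279.9 ± 31.3 to 165 ± 30.8 FPKM, 1.69-fold lower, with a log2 difference of -0.77 ± 0.14 (SE, adjusted p = 0.00199), or -0.60 on the nuclear scale (adjusted p = 0.00551). The difference was -0.78 in replicates 1 to 3 and -0.75 in replicates 4 and 5. Suclg1 lies on chromosome 6 (73248382 to 73276911, plus strand). The beta subunits were far less abundant. Suclg2, of the GTP-forming enzyme, went from 21.3 ± 5.74 to 13.7 ± 4.10 FPKM (adjusted p = 0.0440, but 0.174 on the nuclear scale), and NCD replicate 3 stood at 31.1 FPKM. Its call was lost in 6 of 10 fits that left out 1 library, with an adjusted p of up to 0.117. Sucla2, of the ATP-forming enzyme, was at 16.4 ± 4.71 and 13.2 ± 4.60 FPKM (adjusted p = 0.366).

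Ogdh, the first component of the 2-oxoglutarate dehydrogenase complex, had the smallest difference of the 9. It was at 219, 249, 256, 239 and 244 FPKM in NCD and at 158, 307, 254, 232 and 257 FPKM in HCD. HCD replicate 1 was below all NCD libraries, HCD replicate 2 above all of them, and HCD replicate 5 just above the highest, NCD replicate 3. The means were 241 ± 14.1 and 241 ± 54.3 FPKM (log2 difference -0.03, 95% confidence interval -0.37 to 0.31, adjusted p = 0.909). The sign of this difference turned with the scaling, to 0.14 on the nuclear scale. Dlst, the second component of the complex, had a difference of -0.03 as well (adjusted p = 0.886), and 0.14 on the nuclear scale. Ogdh lies on chromosome 11 (6291633 to 6356642).

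Cs, citrate synthase, which joins acetyl-CoA to oxaloacetate, was at 304, 308, 341, 291 and 322 FPKM in NCD and at 203, 295, 319, 251.5 and 307 FPKM in HCD. Replicates 2, 3 and 5 of HCD lay within the NCD range, and replicates 1 and 4 below it. The log2 difference was -0.20 ± 0.14 (SE, adjusted p = 0.293) and -0.03 on the nuclear scale. After quantile normalization it was 0.08. Cs lies on chromosome 10 (128337734 to 128362479), and the citrate synthase-like gene Csl was at means of 0.0249 and 0.0189 FPKM.

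Mdh2, the mitochondrial malate dehydrogenase, which regenerates oxaloacetate, was by far the most abundant of the 9, at 2409, 2261, 2024, 2419 and 2009 FPKM in NCD and 1399, 2105, 2161, 1865 and 1384 FPKM in HCD. HCD replicates 1 and 5 stood lowest, and replicates 2 and 3 lay within the NCD range. Its log2 difference was -0.34 ± 0.17 (SE, adjusted p = 0.147), or -0.17 on the nuclear scale (adjusted p = 0.468). Mdh2 lies on chromosome 5 (135778480 to 135790398). The cytosolic Mdh1 was at 472 ± 41.0 and 414 ± 146 FPKM (adjusted p = 0.361).

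Pdha1, the catalytic alpha subunit of the first component of pyruvate dehydrogenase, was the least abundant of the 9. Its values were 23.7, 20.3, 31.7, 23.7 and 28.3 FPKM in NCD and 11.1, 26.4, 9.92, 20.7 and 14.1 FPKM in HCD. Replicates 2 and 4 of HCD lay within the NCD range. The log2 difference was -0.68 ± 0.23 (SE, adjusted p = 0.0457), and it passed in 3 of 10 fits that left out 1 library, with an adjusted p of up to 0.111. The 7 fits in which it missed left out an NCD library other than replicate 2 or an HCD library other than replicates 2 and 4. Pdha1 lies on chromosome X (160122209 to 160138413, minus strand), where 1143 bases overlap Map3k15, which averaged 0.124 FPKM (NCD) and 0.0389 FPKM (HCD).

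**Figure D2:**
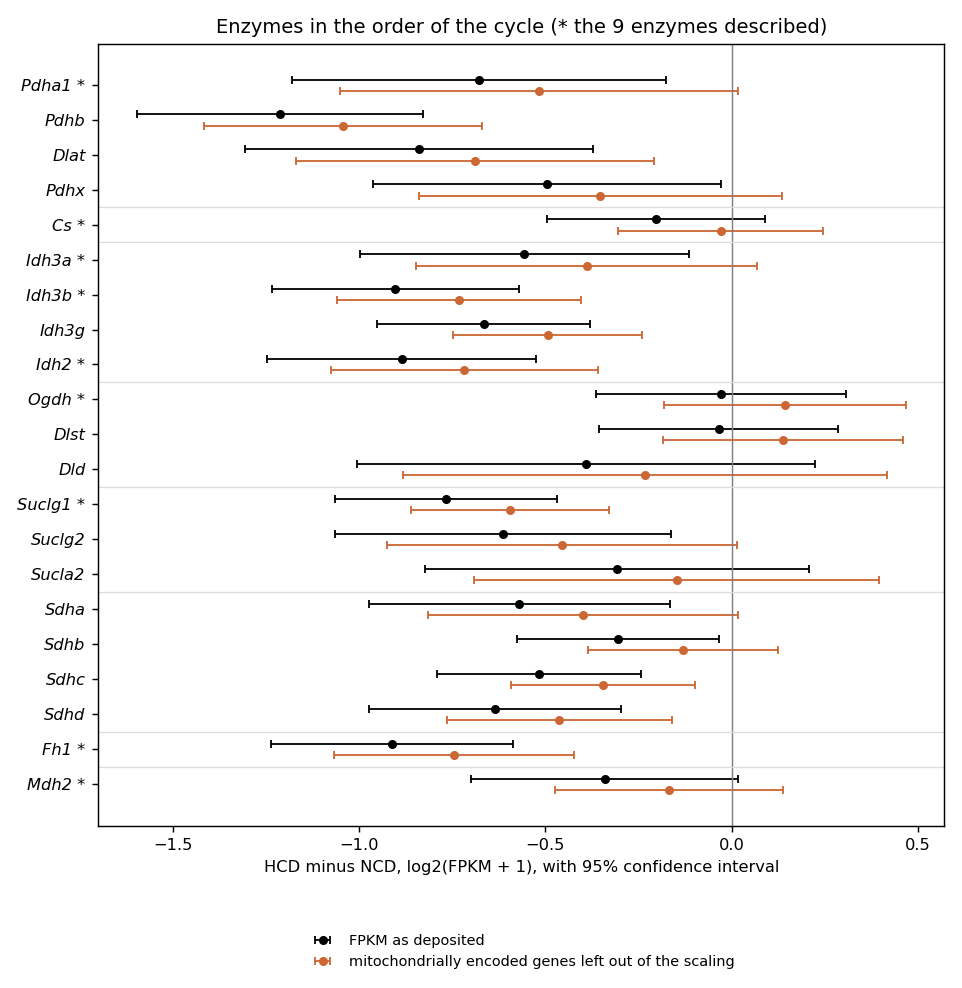
Difference of HCD minus NCD in log2(FPKM + 1), with its 95% confidence interval from limma, for the 9 enzymes (asterisks) and 12 other subunits in the order of the cycle. Black is FPKM as deposited, orange on the nuclear scale. The intervals of Pdhb, Dlat, Idh3b, Idh3g, Idh2, Suclg1, Sdhc, Sdhd and Fh1 lie below 0 on both scales. Those of Cs, Ogdh, Dlst, Dld, Sucla2 and Mdh2 hold 0 on both, and the rest lie below 0 only as deposited. The intervals are not adjusted over genes.

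A list of 12 other subunits of the cycle and of pyruvate dehydrogenase was tested whole. Of these 7 fell and none rose on the deposited scale, with a median of -0.54, beside 19.2% of all tested genes lower. On the nuclear scale 4 fell (median -0.38), beside 8.35% of all tested genes. After quantile normalization 2 of the 12 fell, not far from the 8.56% of all tested genes. The largest difference was in Pdhb, the beta subunit that forms the first component of pyruvate dehydrogenase together with Pdha1. Pdhb was at 145, 95.7, 134, 90.9 and 119 FPKM in NCD and at 37.0, 55.7, 56.8, 62.5 and 38.7 FPKM in HCD, with no overlap. The group means were 117 ± 23.5 and 50.2 ± 11.6 FPKM, so HCD was 2.33-fold lower. The log2 difference was -1.21 with an SE of 0.18 (adjusted p = 5.94e-04), and -1.04 on the nuclear scale (adjusted p = 0.00137). Pdhb and Idh3g passed on all 3 scales. Dlat, the acetyltransferase of pyruvate dehydrogenase, fell on the first 2 (-0.84 and -0.69) and had an adjusted p of 0.0520 after quantile normalization.

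Succinate dehydrogenase, which is also complex II of the respiratory chain, had 3 of 4 subunits lower as deposited: Sdha (-0.57), Sdhc (-0.52) and Sdhd (-0.64), where 19.2% of all tested genes were lower. Sdhb differed by -0.30 (adjusted p = 0.0912). On the nuclear scale only Sdhd of the 4 passed (-0.46, adjusted p = 0.0375), where 8.35% of all tested genes were lower. Sdhc narrowly missed there (-0.35, limma adjusted p = 0.0528). In both Sdhc and Sdhd all HCD libraries lay below all NCD libraries on that scale, as in 6.00% of all tested genes. After quantile normalization none of the 4 passed (adjusted p = 0.122 for Sdhd). Sdha lost its call in 7 of 10 fits that left out 1 library (adjusted p up to 0.0967), the exceptions being NCD replicate 4 and HCD replicates 2 and 4. Dld, a component that several dehydrogenase complexes share, differed by -0.39 (adjusted p = 0.336), and Pdhx, which anchors it in pyruvate dehydrogenase, by -0.50 (adjusted p = 0.109).

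Genes that feed or regulate the cycle gave a mixed picture. Of 5 tested regulators of pyruvate dehydrogenase, out of 7 listed, 2 fell: Pdk4, a kinase that inhibits the complex (-1.06, adjusted p = 0.00260), and Pdp2, a phosphatase that activates it (-0.56, adjusted p = 0.0300, but 0.136 on the nuclear scale). Pdp2 kept its call in 4 of 10 fits that left out 1 library, with an adjusted p of up to 0.0784 in the others. Pdk4 alone of the 5 passed on the nuclear scale. After quantile normalization Pdk4 and Pdp2 passed as lower (limma adjusted p = 0.0155 and 0.0409). Pdk2, another inhibiting kinase, passed there as higher (0.52, limma adjusted p = 0.0349). It did not pass as deposited (0.26) or on the nuclear scale (0.43). The shares of all tested genes that were lower were 19.2% as deposited, 8.35% on the nuclear scale and 8.56% after quantile normalization. On the last, 928 of 10321 tested genes were higher. Of 14 genes for entry and exit of carbon, 1 rose and none fell, a share like the 7.13% of all tested genes that were higher. It was Pcx, pyruvate carboxylase, which makes oxaloacetate from pyruvate. Pcx was at 5.74, 9.07, 7.95, 5.64 and 7.92 FPKM in NCD and at 12.01, 18.7, 15.7, 14.6 and 16.5 FPKM in HCD, and the groups were apart. HCD was wholly above NCD in 4.53% of all tested genes. The group means were 7.26 ± 1.51 and 15.5 ± 2.45 FPKM. The log2 difference was 1.00 with an SE of 0.17 (adjusted p = 0.00129), and 1.17 on the nuclear scale. Of 8 tested cytosolic and related enzymes, out of 13 listed, none passed in either direction (limma). Pdha2, the testis form of Pdha1, was listed at 0 in all libraries.

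In order of mean FPKM, NCD had Mdh2, Cs, Suclg1, Ogdh, Idh3b, Idh2, Fh1, Idh3a and Pdha1. The order in HCD was the same except that Ogdh stood above Suclg1. Neighbours whose libraries overlapped were Cs and Suclg1, Suclg1 and Ogdh, Idh2 and Fh1, and Fh1 and Idh3a in NCD. In HCD they were Cs and Ogdh, Ogdh and Suclg1, Idh2 and Fh1, Fh1 and Idh3a, and Idh3a and Pdha1. The 9 genes together took 0.609% ± 0.0236 of summed FPKM in NCD and 0.452% ± 0.0887 in HCD, or 0.638% ± 0.0212 and 0.558% ± 0.0879 of the sum without the mitochondrially encoded genes. On the latter measure the groups overlapped, with HCD replicate 2 at 0.675% and the highest NCD library at 0.663%. These sums are mostly Mdh2, which did not pass. It averaged 2224 FPKM of a mean sum of 3443 in NCD, and 1783 of 2677 in HCD.

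A ratio of 2 enzymes within a library hardly depends on how the library was scaled, and it shows whether both enzymes changed alike. All 36 pairs of the 9 were compared, a comparison chosen after the values were seen, with an exact permutation test over all ways of dividing the libraries 5 and 5 (two-sided, adjusted over the 36 pairs). In 8 pairs the groups did not overlap, each at the smallest p that this design allows, 0.00794 (exact permutation, adjusted p = 0.0357). All 8 set Fh1, Idh3b or Suclg1, which had passed singly, against Ogdh, Cs or Mdh2, which had not. They share these genes with the single-gene results above and with each other, so they are not 8 separate results. How often pairs of other genes lie apart was not tested. Of single genes, 12.9% of all tested had HCD wholly below NCD and 4.53% wholly above. The ratio of Ogdh to Suclg1 was 0.672 to 0.956 in NCD libraries and 1.12 to 1.85 in HCD libraries, so Ogdh was the lower of the pair in every NCD library and the higher in every HCD library. That of Ogdh to Fh1 was 2.66 to 4.63 in NCD and 5.11 to 8.19 in HCD. That of Cs to Idh3b was 1.46 to 2.18 in NCD and 2.53 to 4.57 in HCD, and that of Cs to Fh1 3.70 to 5.71 and 6.56 to 9.79. Idh2, with a log2 ratio to Cs that differed by -0.68 when Idh2 is the numerator, was not among the 8 (exact permutation p = 0.0317, adjusted p = 0.0952). No pair among Fh1, Idh3b, Idh2 and Suclg1 passed. Without NCD replicate 1, NCD replicate 3 or HCD replicate 5 none of the 36 pairs passed, and without any other single library 6 to 8 did. With so few libraries, pairs at the smallest p pass the adjustment only when several reach it together. A count of none therefore does not mean that no pair was apart.

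**Figure D3:**
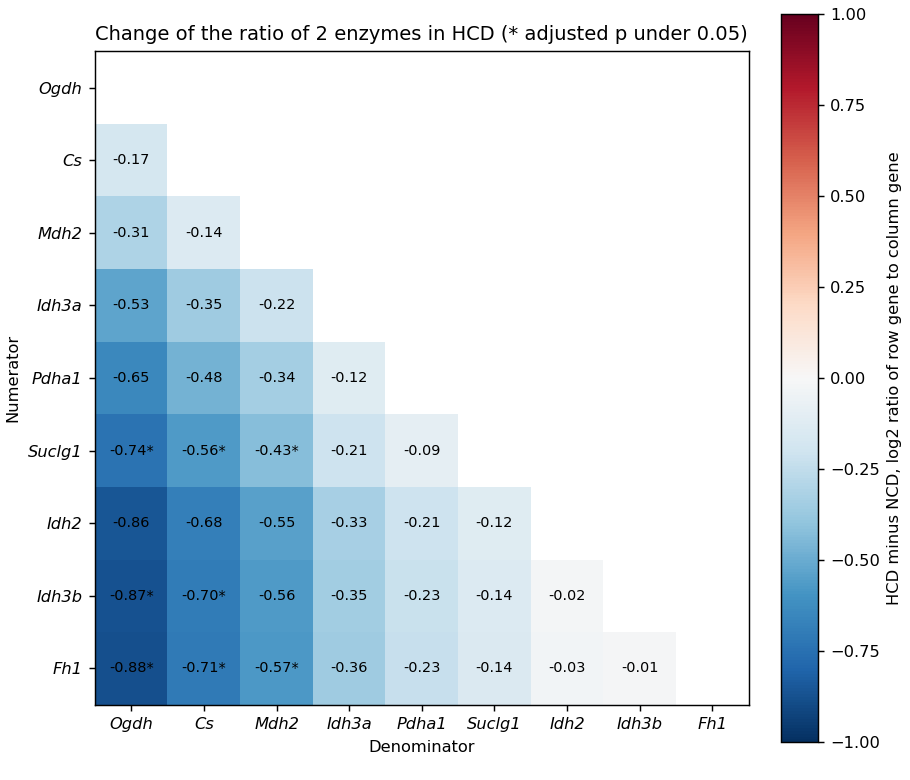
Difference between the groups, HCD minus NCD, in the log2 ratio of each pair of enzymes, row gene over column gene, with genes ordered by their log2 difference. Asterisks mark the 8 pairs that passed, and all of them stand where Suclg1, Idh3b or Fh1 is set against Ogdh, Cs or Mdh2.

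Ratios of 6 pairs of partner or compartment counterparts were compared in the same way, with adjustment over the 6, and none passed. The ratio of Pdha1 to its partner Pdhb was 0.169 to 0.269 in NCD and 0.189 to 0.484 in HCD (exact permutation p = 0.0714, adjusted p = 0.190). Idh2 to Idh1 was 1.18 to 2.25 in NCD and 0.375 to 1.51 in HCD (exact permutation p = 0.0397, adjusted p = 0.190). Idh3a to Idh3b was 0.243 to 0.391 in NCD and 0.296 to 0.475 in HCD, with a difference of 0.35 in the log2 ratio (exact permutation adjusted p = 0.190). The log2 ratios of Idh2 to Idh3a, Suclg1 to Sucla2 and Mdh2 to Mdh1 differed by -0.33, -0.46 and -0.09 (exact permutation adjusted p = 0.352, 0.238 and 0.563). Without HCD replicate 3, 1 of the 6 passed, Pdha1 to Pdhb (0.73, exact permutation adjusted p = 0.0476).

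**Figure D4:**
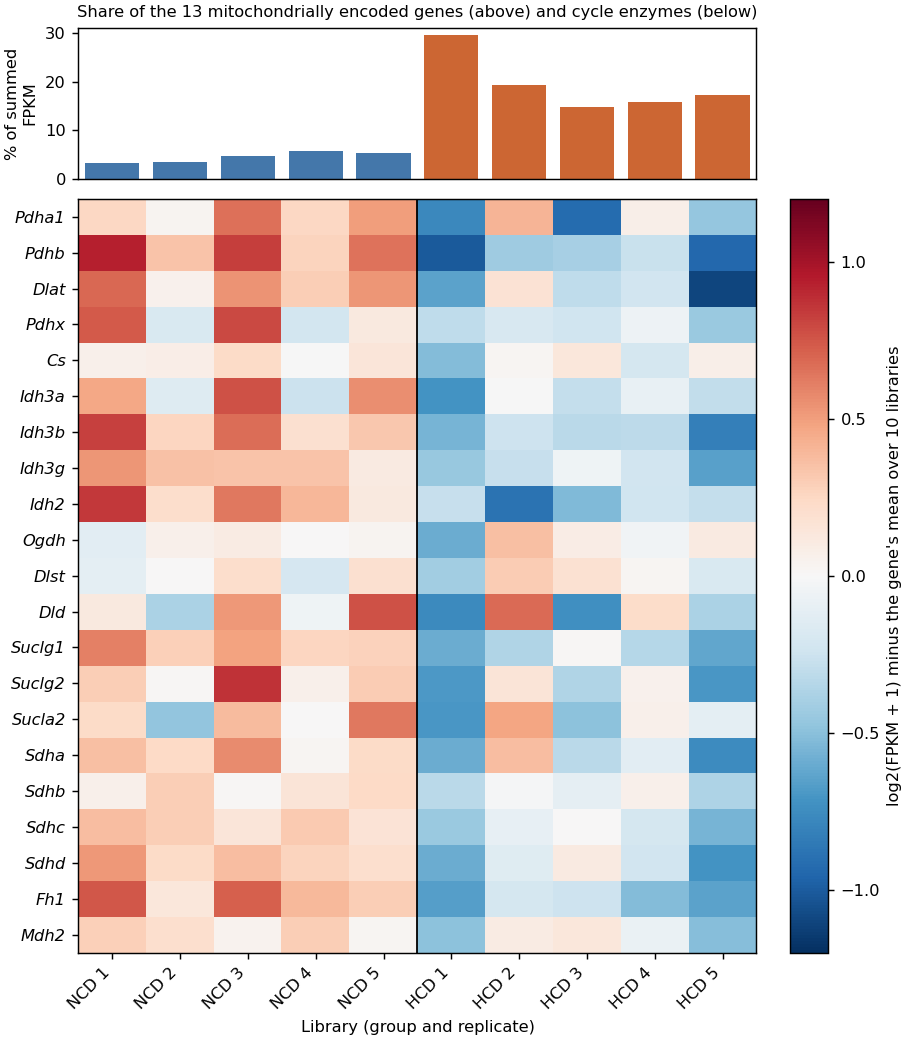
Above, the share of summed FPKM taken by the 13 mitochondrially encoded genes in each library, in percent. Below, log2(FPKM + 1) of 21 cycle and pyruvate dehydrogenase genes minus each gene's mean over the 10 libraries, red above and blue below the mean, in the order of the cycle. HCD replicate 1, with a share of 29.5%, is below the mean in all 21 genes.

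The libraries of a group did not rank alike in all enzymes. In NCD, replicates 1 and 3 were each the highest of the group in 4 of the 9 enzymes and replicate 4 was the lowest in 4. In HCD, replicate 1 was the lowest in 4 and replicate 5 in 3, while replicate 2 was the highest in 5 and replicate 3 in 3. Averaged over the 9 enzymes, the log2 level relative to each gene's mean was 0.12 to 0.48 in NCD libraries and -0.58 to -0.09 in HCD libraries.

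Sequences before a RefSeq start site are shown for 3 enzymes that fell, Fh1, Idh3b and Suclg1, and for Cs, which did not pass and to which all 3 were compared in the ratios above. They are the 250 bases before the RefSeq start site listed first for the gene (GRCm38.p6), on the gene's strand, with CCAAT boxes in capitals (CCAAT, or ATTGG where it lies on the other strand). The RefSeq starts of Idh3b and Suclg1 lie inside the gene bounds given above from GENCODE, so part of each of these windows is within the annotated gene. RefSeq windows were found for 8 of the 9 genes and none for Idh3a.
Fh1, chr1:175625636-175625885, minus strand: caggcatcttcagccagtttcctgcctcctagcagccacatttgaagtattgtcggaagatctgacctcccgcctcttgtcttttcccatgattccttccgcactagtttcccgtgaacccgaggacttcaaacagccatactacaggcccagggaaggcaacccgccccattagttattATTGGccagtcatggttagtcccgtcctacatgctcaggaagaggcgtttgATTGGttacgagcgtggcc
Idh3b, chr2:130284452-130284701, minus strand: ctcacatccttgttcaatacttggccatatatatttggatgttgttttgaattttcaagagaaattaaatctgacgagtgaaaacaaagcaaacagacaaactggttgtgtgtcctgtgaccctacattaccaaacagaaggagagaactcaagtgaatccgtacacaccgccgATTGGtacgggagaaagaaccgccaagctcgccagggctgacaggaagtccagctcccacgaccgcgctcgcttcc
Suclg1, chr6:73248255-73248504, plus strand: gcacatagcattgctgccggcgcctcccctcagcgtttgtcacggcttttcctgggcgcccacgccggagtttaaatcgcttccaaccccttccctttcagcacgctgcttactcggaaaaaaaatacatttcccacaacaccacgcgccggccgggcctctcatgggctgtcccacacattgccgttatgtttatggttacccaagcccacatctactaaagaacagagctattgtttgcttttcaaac
Cs, chr10:128337477-128337726, plus strand: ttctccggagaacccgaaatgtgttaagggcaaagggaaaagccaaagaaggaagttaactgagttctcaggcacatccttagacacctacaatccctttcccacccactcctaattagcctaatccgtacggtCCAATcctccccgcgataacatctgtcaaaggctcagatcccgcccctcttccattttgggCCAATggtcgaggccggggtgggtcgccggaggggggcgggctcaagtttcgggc

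These windows were searched on both strands for 4 motifs of factors known to act on nuclear genes for mitochondrial proteins or on many promoters. A CCAAT box was present in 5 of the 8 genes, namely Cs, Fh1, Idh2, Idh3b and Ogdh, and in 33.8% of all 32851 windows of the table. The first count is by gene, over all windows of a gene, and the second is by window. Ogdh had 6 windows, and the one listed first held the box. Fh1 has 2 of them, starting 19 and 70 bases before the start site, and Cs 2, at 55 and 116 bases. That of Idh3b lies at 76 bases, inside the GENCODE bounds of the gene. Suclg1 has none in this window. The palindromic NRF1 consensus (0.782% of all windows), the oestrogen-related receptor motif TCAAGGTCA (0.387%) and the GABP motif CCGGAAG (6.91%) were in none of the 8 genes' windows. The CCAAT box thus occurred both in enzymes that fell and in enzymes that did not pass.

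The 5 genes of at least 5 FPKM outside the 9 whose profile over the 10 libraries came nearest to the mean profile of the enzymes, by root-mean-square difference in centred log2(FPKM + 1), were Atp6v0a2 (0.0817), Ccl25 (0.0847), Scarb2 (0.0905), Pgam1 (0.0929) and Josd1 (0.0953), among 6443 genes ranked. Ccl25, a chemokine of the small-intestinal epithelium, went from 455 ± 53.7 to 285 ± 43.1 FPKM, and Pgam1, a glycolytic mutase, from 308 ± 34.0 to 200.5 ± 28.4 FPKM. The 9 enzymes themselves lay farther from this mean profile, from 0.164 (Suclg1) to 0.333 (Ogdh). The mean takes in enzymes that fell and enzymes that did not pass. The likeness of the 5 genes is to that mean and not to any single enzyme, and it is a description of these libraries.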

How the data were processed

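Libraries were made from poly-T selected messenger RNA, per the labels' protocols. The deposited values are FPKM, 1 column per library. HISAT2, StringTie and the build GRCm38 are named in the submitters' processing notes, as are DESeq2 and edgeR. The sources used here do not give their roles, versions, annotation or strand handling. The table has 24839 rows, 22036 with an Ensembl identifier, and 27 symbols turned into dates were restored by identifier.

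Libraries were grouped by title. The 10321 genes that averaged 1 FPKM or more across the 10 libraries were fitted as log2(FPKM + 1) with limma 3.58.1 in R 4.3.3 (lmFit, eBayes with a trend), with Benjamini-Hochberg adjustment over all of them and a threshold of 0.05. A fold is a ratio of mean FPKM, and the log2(FPKM + 1) scale understates changes of low genes. On the nuclear scale the 13 mitochondrially encoded genes were removed and each library rescaled to 1 common sum. The fit and the permutation test were tested on simulated data. Coordinates are from GENCODE M21 (GRCm38). Where genes overlap, the submitters' division of reads was not rechecked.

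The 9 enzymes, the gene lists and the tests were chosen with earlier results of these data known. By a fixed rule the named genes are the 9 enzymes, up to 4 genes of each list with the smallest p, the genes of the 6 preset ratios and the 5 nearest profiles. The remaining listed subunits, Csl, Pdha2 and the overlapping genes were added after their values were seen. Same-numbered libraries of the groups were checked for pairing and were not paired. Alternatives were another pseudocount (0.1), no filter, other scalings, eBayes without a trend, a replicate block, and fits on subsets of libraries. 1 listed item is not reported here.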

Additional observations from a re-analysis of the deposited data

Results flagged for a closer look

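Within groups of 5 libraries, 54 sets of values were screened for a library far from the other 4 (21 genes and 6 ratios in each group), and 2 stood out, where chance gives about 1 in 20. Suclg2, the beta subunit of the GTP-forming succinate-CoA ligase, was at 31.1 FPKM in NCD replicate 3 and at 16.8 to 20.8 FPKM in the other NCD libraries. Without that library its log2 difference was -0.47 (adjusted p = 0.117). The ratio of Mdh2 to Mdh1 was 3.34 in HCD replicate 3 and 4.52 to 4.89 in the other HCD libraries. Without that library the difference in the log2 ratio was 0.01 in place of -0.09.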

How the results depend on the processing

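Pdk4 passed as lower under 19 of 20 alternatives, with a limma adjusted p of up to 0.0588. Fh1, Idh3b, Idh2, Suclg1, Pdhb, Idh3g, Polrmt and Pcx each passed in the same direction under 19 of 20 alternatives as well. For these the exception was the fit of replicates 4 and 5 alone (2 libraries per group). There no enzyme of the 9 and none of the 12 other subunits passed (0 and 0), and 11 genes in all were lower and 45 higher. In replicates 1 to 3 alone the numbers were 4, 2, 1006 and 414. Lower genes over the table numbered 861 on the nuclear scale, 883 after quantile normalization, and 783 on the nuclear scale without HCD replicate 1, a setting chosen after seeing the data. For the 12 subunits these settings gave 4, 2 and 2. Leaving out 1 library gave 4 to 6 of the 9, 5 to 7 of the 12, 1319 (without NCD replicate 1) to 2036 lower and 551 to 787 higher genes, 0 to 8 of the 36 pairs and 0 to 1 of the 6 preset ratios. With 3 libraries per group the exact test cannot go below 0.1. The replicate block gave 4 of the 9, 6 of the 12 and 1620 lower and 673 higher genes, and Pdha1, Suclg2 and Pdp2 did not pass (adjusted p = 0.0802, 0.0746 and 0.0814), while no other named call changed. Same-numbered libraries correlated at -0.24 to 0.22 in their deviations from the group means, and 1 of 5 correlated best with its own number.

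Signs of differences that did not pass turned in these cases. On the nuclear scale, Ogdh was at 0.14 and Dlst at 0.14, and with HCD replicate 1 also left out Cs was at 0.051, Ogdh at 0.26, Dlst at 0.21 and Mdh1 at 0.013. Quantile normalization gave Cs 0.078, Ogdh 0.25, Dlst 0.22 and Mdh1 0.021. Idh1 was at -0.053 as TPM, and in replicates 4 and 5 alone Idh1 was at -0.23 and Ogdh at 0.015. Leaving out 1 library moved Ogdh between -0.12 and 0.11, Dlst between -0.12 and 0.065, Idh1 between -0.17 and 0.18, and the log2 ratio of Mdh2 to Mdh1 between -0.16 and 0.013. The causes were not tested. Depth is unknown, so counting error cannot be given.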

Other observations

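Of 9 regulators of mitochondrial gene expression, 8 were tested and 2 fell in HCD, both as deposited and on the nuclear scale, where 19.2% and 8.35% of all tested genes were lower. As deposited, 2 of 8 is near the share of all genes. Polrmt, the RNA polymerase that transcribes the mitochondrial genome, was at 20.4, 21.9, 21.2, 20.9 and 19.5 FPKM in NCD and at 10.6, 13.1, 11.1, 15.6 and 12.4 FPKM in HCD, with no overlap. Its mean fell from 20.8 ± 0.900 to 12.6 ± 1.96 FPKM (log2 difference -0.69, adjusted p = 0.00292, or -0.53 and adjusted p = 0.0183 on the nuclear scale). All 13 transcripts of that genome were higher in HCD as deposited, with a summed level of 18784 to 34009 FPKM in NCD and 90535 to 186905 in HCD. Of all tested genes 7.13% were higher, and 4.53% had HCD wholly above NCD. The 13 are not on the nuclear scale, which leaves them out. After quantile normalization mt-Co1, the most abundant, did not pass (0.16, limma adjusted p = 0.607), and the others did. As deposited, mt-Co1 was 4.43-fold higher in HCD, with no overlap. Quantile normalization gives each rank the same value in every library, so a gene near the top rank can hardly show a difference there. Pprc1, a coactivator of nuclear genes for mitochondrial proteins, fell as well (-0.82, adjusted p = 0.0135, or -0.71 and adjusted p = 0.0497 on the nuclear scale).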
